A study of Mus musculus with 32 samples.

Results

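MHC class II molecules are the cell surface proteins that show peptides from engulfed or degraded material to CD4 T cells. The genes described here are 7: H2-Aa, H2-Ab1 and H2-Eb1, which encode chains of the class II molecules themselves, Cd74, which encodes the invariant chain, H2-DMa and H2-DMb1, which encode the peptide editor H2-DM, and Ciita, which encodes the class II transactivator. They were chosen by symbol, and all probes whose RefSeq accession carries one of these symbols were taken. This gave 8 probes, 2 for H2-Ab1 and 1 for each other gene, of 27235 named probes for 20660 genes on the array.

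Messenger RNA was measured in 4 groups, all of strain background 129+Ter/SvJcl. The SMG (superior mesenteric ganglion, one of the prevertebral sympathetic ganglia) came from wild-type mice (n = 8) and from TH-MYCN hemizygotes (n = 8), all 3 weeks old. TH-MYCN mice carry a human MYCN transgene behind a tyrosine hydroxylase promoter, which is active in sympathetic neuroblasts and other catecholamine-making cells, and they develop neuroblastoma. Primary spheres (n = 8) were free-floating cultures from TH-MYCN hemizygotes of the same age, kept for 8 days, and passaged spheres (n = 4) were primary spheres passaged 5 times, each measured on 2 arrays that were averaged. No cultures from wild-type mice were analysed here, so culture and genotype were not varied separately. The labels do not say from which organ the spheres were grown, whether they came from the mice whose ganglia were measured, or whether 1 ganglion sample is 1 mouse or a pool. Th and Dbh, which encode catecholamine synthesis enzymes, were well above background on all 32 arrays.

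Class II genes are normally switched on in professional antigen-presenting cells, which are dendritic cells, B cells and some macrophages, and in other cells after interferon gamma. The chains pair in the endoplasmic reticulum with the invariant chain, which blocks the peptide groove and carries the complex to endosomes. Proteases trim the invariant chain there, and H2-DM exchanges its last fragment for a peptide. The genes share a promoter module whose X and Y boxes are bound by RFX, CREB and NF-Y, and CIITA binds no DNA itself but is recruited by these factors and sets whether the genes are transcribed.

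RefSeq promoter windows of 300 bases around an annotated start site, on mouse assembly GRCm38.p6, were found for 4 of the 7 genes, with 2 start sites for H2-DMa. They are shown because the shared promoter module is what CIITA acts through. Capitals mark 3 searched words: TGATTGG (the core of the Y box, in 7.82% of 32851 promoter windows), CTGATGATG (in 0.527%) and the palindrome TGACGTCA (the cyclic AMP response element, in 1.79%). Both strands were searched, the words were chosen with these sequences in view, and no matches overlapped.
H2-Aa, chr17:34287774-34288073, minus strand: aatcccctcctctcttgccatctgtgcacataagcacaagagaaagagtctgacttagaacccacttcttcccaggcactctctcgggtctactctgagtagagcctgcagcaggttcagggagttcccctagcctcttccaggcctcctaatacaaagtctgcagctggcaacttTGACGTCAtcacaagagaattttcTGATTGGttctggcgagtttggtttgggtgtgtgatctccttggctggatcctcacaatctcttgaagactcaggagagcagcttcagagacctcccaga
H2-Eb1, chr17:34305617-34305916, plus strand: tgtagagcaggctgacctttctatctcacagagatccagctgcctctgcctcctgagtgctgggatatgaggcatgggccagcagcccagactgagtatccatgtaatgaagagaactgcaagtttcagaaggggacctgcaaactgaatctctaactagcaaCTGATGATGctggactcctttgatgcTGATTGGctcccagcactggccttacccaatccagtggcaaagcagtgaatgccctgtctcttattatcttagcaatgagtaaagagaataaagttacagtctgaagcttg
H2-DMb1, chr17:34152941-34153240, plus strand: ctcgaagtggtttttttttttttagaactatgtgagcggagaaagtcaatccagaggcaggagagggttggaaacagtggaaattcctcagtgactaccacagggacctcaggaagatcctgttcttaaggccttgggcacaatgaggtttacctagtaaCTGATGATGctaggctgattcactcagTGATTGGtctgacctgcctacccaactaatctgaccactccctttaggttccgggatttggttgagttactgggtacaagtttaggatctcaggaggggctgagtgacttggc
H2-DMa, first start site, chr17:34122582-34122881, plus strand: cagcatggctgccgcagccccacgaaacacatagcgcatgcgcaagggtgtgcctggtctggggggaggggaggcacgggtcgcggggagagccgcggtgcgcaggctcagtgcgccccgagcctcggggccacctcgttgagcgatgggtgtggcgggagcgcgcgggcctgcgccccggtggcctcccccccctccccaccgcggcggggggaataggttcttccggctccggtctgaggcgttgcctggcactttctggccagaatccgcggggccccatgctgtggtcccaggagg
H2-DMa, second start site, chr17:34125268-34125567, plus strand: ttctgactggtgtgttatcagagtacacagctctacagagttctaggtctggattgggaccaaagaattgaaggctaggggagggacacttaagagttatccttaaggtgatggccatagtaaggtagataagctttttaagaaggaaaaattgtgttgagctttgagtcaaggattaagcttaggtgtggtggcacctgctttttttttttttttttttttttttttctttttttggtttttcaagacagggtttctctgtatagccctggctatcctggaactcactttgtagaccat
The Y box core began 50 bases before the start site in H2-Aa, 61 in H2-Eb1 and 63 in H2-DMb1, on the strand of the gene each time. CTGATGATG began 87 bases before the start in H2-Eb1 and 90 in H2-DMb1, and TGACGTCA began 74 bases before the start in H2-Aa. Neither window of H2-DMa held any of the 3 words, which says only that these letters are not in these windows. Presence of the Y box core did not go with absence from the spheres in every gene: H2-Ob holds it 59 bases before its start and was well above background in all 8 primary spheres. H2-Ob was still called lower there than in TH-MYCN SMG, at -0.41. H2-Oa holds the core 45 bases before its start and was not well above background on any primary sphere array. H2-DMb2 and H2-Eb2 hold it too and were not tested in spheres. A match is a description of the sequence and not a measured binding site.

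Levels are given as log2 of the processed spot signal minus the 75th percentile of that array, so that 0 is the brightness of a spot at that percentile. Probes differ in brightness for the same amount of RNA, so levels were compared between groups and not between genes. That percentile was a signal of 519 to 985 for wild-type and 837 to 1356 for TH-MYCN ganglia. It was 462 to 563 for primary and 321 to 538 for passaged spheres. Between 49.0% and 65.7% of features were well above background on an array. Slides 1 and 2 each held 4 wild-type and 4 TH-MYCN SMG samples, in separate slide columns, so slide column and genotype cannot be told apart. Slides 3 and 4 held the spheres, so slide and group cannot be told apart between ganglion and sphere. Primary and passaged spheres were in separate slide columns too, so slide column and passage cannot be told apart.

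The class II genes were lower in the TH-MYCN ganglion than in the wild-type ganglion, while most macrophage markers were higher. Of the 7 genes, 6 were called lower by limma at an adjusted p under 0.05, by 1.44- to 1.74-fold, and Ciita was not called. Across all 15826 genes tested, 44.0% were called lower and 21.8% higher, and the median log2 difference was -0.22. The median over the 7 genes was -0.68. In 2 of the 7, H2-Ab1 and H2-DMa, every TH-MYCN sample lay below every wild-type sample, as it did in 12.6% of all genes tested. In whole ganglia, fewer cells that express a gene and less of its RNA per cell cannot be told apart.

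**Figure D1:**
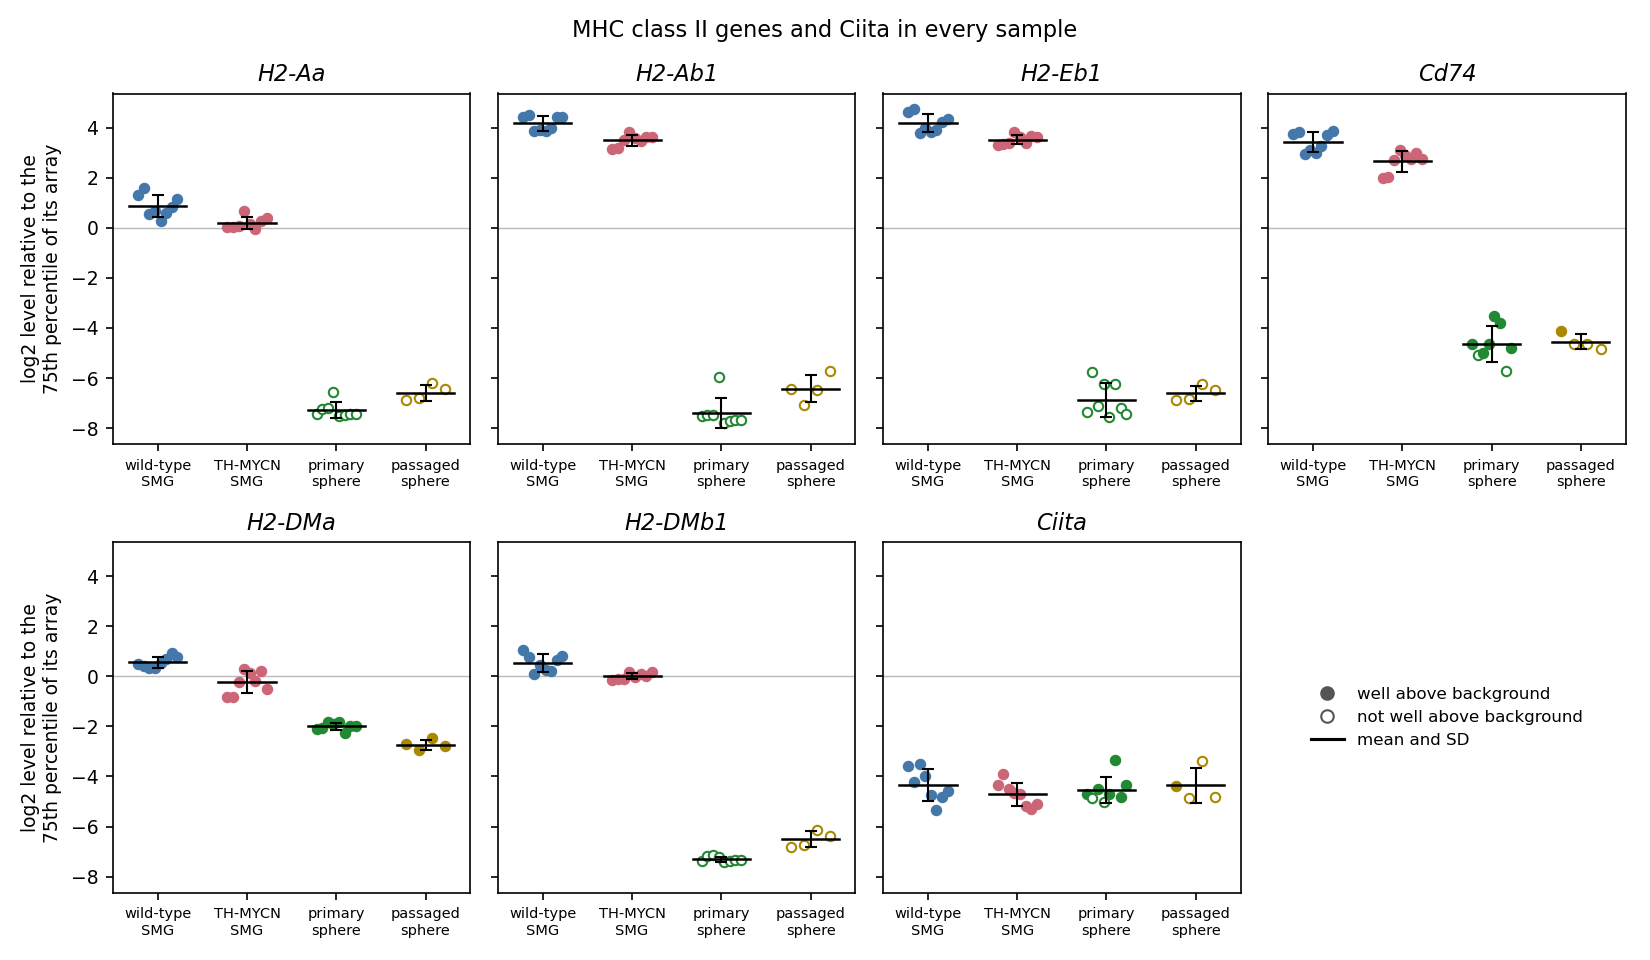
Log2 level of each gene, relative to the 75th percentile of its array, in every sample of the 4 groups, with the group mean and SD. Filled points are well above background. The ganglion points lie far above the sphere points in 5 panels, those of H2-DMa lie closer together, and the 4 groups of Ciita overlap.

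Among the chains of the class II molecules, H2-Aa, the alpha chain of H2-A, ranged from 0.28 to 1.61 with a median of 0.75 in wild-type SMG. In TH-MYCN SMG it ranged from -0.04 to 0.66 with a median of 0.10. The lowest wild-type samples therefore lay within the TH-MYCN range. The log2 difference was -0.68 (SE 0.17, adjusted p = 0.00224, limma, n = 8 and 8).

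H2-Ab1, its beta chain partner, ranged from 3.86 to 4.51 with a median of 4.22 in wild-type SMG. In TH-MYCN SMG it ranged from 3.14 to 3.82 with a median of 3.55, and the groups did not overlap. The log2 difference was -0.69 (SE 0.13, adjusted p = 0.000279, limma). The second H2-Ab1 probe gave -0.63 and was called too.

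H2-Eb1, the beta chain of H2-E, ranged from 3.80 to 4.73 with a median of 4.12 in wild-type SMG. In TH-MYCN SMG it ranged from 3.29 to 3.82 with a median of 3.52. Only the edges of the ranges touched. The log2 difference was -0.66 (SE 0.14, adjusted p = 0.000723, limma). No probe on the array was named for its alpha chain, H2-Ea.

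Cd74, the invariant chain, ranged from 2.96 to 3.87 with a median of 3.48 in wild-type SMG. In TH-MYCN SMG it ranged from 1.98 to 3.13 with a median of 2.75. TH-MYCN SMG 1 and 2 were lowest, at 1.98 and 2.01, and the ranges overlapped at their edges. The log2 difference was -0.78 (SE 0.19, adjusted p = 0.00222, limma).

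Both subunits of the peptide editor were lower. H2-DMa ranged from 0.34 to 0.94 with a median of 0.51 in wild-type SMG, and from -0.82 to 0.30 with a median of -0.21 in TH-MYCN SMG. Its groups did not overlap, and TH-MYCN SMG 1 and 2 were lowest here as well. The log2 difference of H2-DMa was -0.80 (SE 0.17, adjusted p = 0.000596, limma).

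H2-DMb1 ranged from 0.08 to 1.07 with a median of 0.56 in wild-type SMG, and from -0.16 to 0.18 with a median of 0.01 in TH-MYCN SMG. The TH-MYCN samples lay close together and overlapped with 1 wild-type sample. The log2 difference was -0.53 (SE 0.13, adjusted p = 0.00195, limma). H2-DMb1 has a near-identical copy, H2-DMb2, whose transcripts its probe may also bind. The probe of H2-DMb2 itself was well above background on 0 of the 16 ganglion arrays.

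Ciita, the transactivator of all these genes, was dim in every group. It ranged from -5.33 to -3.51 with a median of -4.39 in wild-type SMG, and from -5.30 to -3.92 with a median of -4.69 in TH-MYCN SMG, so that the groups overlapped almost entirely. The log2 difference was -0.38 (SE 0.26, adjusted p = 0.210, limma). Within both genotypes every sample on slide 1 lay above every sample on slide 2: the lowest wild-type value on slide 1 was -4.21 against a highest of -4.57 on slide 2, and the TH-MYCN values were -4.68 and -4.71. With slide as a block the difference of -0.38 was called (adjusted p = 0.0331, limma), and with normexp background correction, a model-based alternative for dim spots, it was -0.54 and called (adjusted p = 0.0161). It was not called within slide 1 (-0.53, adjusted p = 0.0628) or within slide 2 (-0.22, adjusted p = 0.328).

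Of the genes around the class II pathway, the promoter-binding factors went mostly the other way. Of 7 listed, 6 could be tested, 4 were higher, 1 was lower and 1 was not called. All 3 subunits of NF-Y, the Y box factor, were higher: Nfyc by 0.92 (SE 0.14, adjusted p = 3.16e-05, limma), Nfya by 0.74 (SE 0.12) and Nfyb by 0.51 (SE 0.13) on the log2 scale. Creb1 was higher by 0.39 (SE 0.08). Rfxank, a subunit of RFX, differed by -0.33 (SE 0.10, adjusted p = 0.00690, limma), and Rfx5, its DNA-binding subunit, was well above background on 1 of the 16 ganglion arrays and was not tested.

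The listed genes of class II antigen processing, most of them for endosomal proteins that trim the invariant chain or prepare peptides, split into both directions. Of 7 genes tested, 2 were higher and 5 lower. Ctss, which encodes cathepsin S, the main protease of the invariant chain in antigen-presenting cells, ranged from 1.36 to 2.31 in wild-type SMG and from 2.82 to 3.89 in TH-MYCN SMG, without overlap. Its log2 difference was 1.64 (SE 0.16, adjusted p = 3e-07, limma), and Ctsh was higher too, by 0.65. Other genes of the list were lower: the lysosomal protease genes Lgmn at -0.86 (SE 0.12), Ctsl at -0.81 (SE 0.11), Ctsb at -0.47 (SE 0.07) and Ifi30, an interferon-inducible thiol reductase gene of antigen-presenting cells, at -0.71 (SE 0.12).

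The interferon gamma pathway, which induces Ciita, had 14 of 15 listed genes tested, of which 9 were lower, 2 higher and 3 not called, with a median of -0.50. Its effectors Irf1 (-0.79, SE 0.13), Igtp (-0.93, SE 0.15) and Irgm1 (-0.84, SE 0.11) were lower, as were the receptor genes Ifngr1 (-0.50, SE 0.11) and Ifngr2 (-0.52, SE 0.11). Cxcl10, a chemokine gene, was higher by 1.31 (SE 0.17) and Irf8, a factor of the myeloid lineage, by 0.95 (SE 0.14). Ifng itself was not well above background on any of the 32 arrays. Among 5 of 7 costimulatory genes that could be tested, Cd40 (-1.02, SE 0.21) and Cd274 (-0.64, SE 0.11) were lower and Cd80, Cd86 and Icosl were not called.

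Of the other class II chains, H2-Oa and H2-Ob, the subunits of the H2-DM inhibitor H2-O, were well above background in all 16 ganglia. Neither H2-Oa (-0.44, adjusted p = 0.0732, limma) nor H2-Ob (-0.20, adjusted p = 0.502) was called. H2-Eb2 was above background in 3 wild-type samples and in 0 TH-MYCN samples, and was not tested.

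Marker genes of cell types that can carry class II moved with genotype in different directions. Of 17 macrophage markers 16 were on the array and 15 were tested: 11 were higher, 2 lower and 2 not called, with a median of 1.35. Ms4a7 rose by 3.18 (SE 0.20), Mpeg1 by 2.27 (SE 0.16), Aif1 by 1.77 (SE 0.17) and C1qa by 1.35 (SE 0.14) on the log2 scale, while Mrc1 (-0.79, SE 0.12) and Cd14 (-0.75, SE 0.14) were lower. A macrophage score, the mean log2 level of the 15 markers in a sample, ran from 0.15 to 0.75 in wild-type SMG and from 0.86 to 1.64 in TH-MYCN SMG, without overlap. Cd163 was not well above background on any ganglion array, and Cd68 had no named probe.

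Of 9 dendritic cell markers tested, Itgax (2.21, SE 0.16) and Batf3 (1.87, SE 0.21) were higher, Flt3 (-0.86, SE 0.15) and Ccr7 (-1.35, SE 0.52) were lower, and 4 were not called. Clec9a was called lower too (adjusted p = 0.0498, limma), but it was well above background in 4 wild-type and 0 TH-MYCN samples, so near the floor that no fold can be given. Itgax is also made by activated macrophages. The score of these markers overlapped fully, at -3.37 to -2.43 in wild-type SMG and -3.10 to -2.74 in TH-MYCN SMG. Xcr1, the marker of cross-presenting dendritic cells, was not well above background on any ganglion array.

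B cell markers were lower: 4 of 4 tested, among them Ms4a1 at -1.85 (SE 0.53), Cd79b at -1.21 (SE 0.40) and Cd22 at -0.52 (SE 0.16). Their score ran from -3.64 to -0.33 in wild-type SMG and had a lowest value of -4.08 and a median of -3.15 in TH-MYCN SMG, where every sample lay below all but 1 of the wild-type samples. Wild-type SMG 1, 4 and 2 had the highest B cell scores, at -0.33, -1.18 and -1.56, and wild-type SMG 1 also had the highest T cell score, at 0.45 against a wild-type median of -1.60. Of the defining B cell genes, Cd79a and Pax5 were each detected in 1 wild-type sample and Blk in 0. Without these 3 wild-type samples, chosen after their values were seen, the same number of class II genes was called lower, 6 of 7, with a median of -0.50. With all samples 44.0% of all genes were called lower, and the share in this smaller fit is not reported here. Without that share the count does not show whether the class II genes stand apart from other genes in this fit. Without the 3 samples the differences were -0.49 for H2-Aa, -0.62 for H2-Ab1, -0.50 for H2-Eb1, -0.70 for Cd74, -0.89 for H2-DMa and -0.40 for H2-DMb1. In that fit 0 of the 4 B cell markers were called, which the choice of samples by their B cell score favours in advance. The fit therefore cannot tell what part B cells have in the class II differences.

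Of 7 endothelial markers 5 were lower and 2 not called, with a median of -0.49, for example Cdh5 at -0.61 (SE 0.12) and Kdr at -1.02 (SE 0.29). All 8 Schwann and satellite glial markers were lower, with a median of -1.13. The part of these cell types in the class II differences was not tested.

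**Figure D2:**
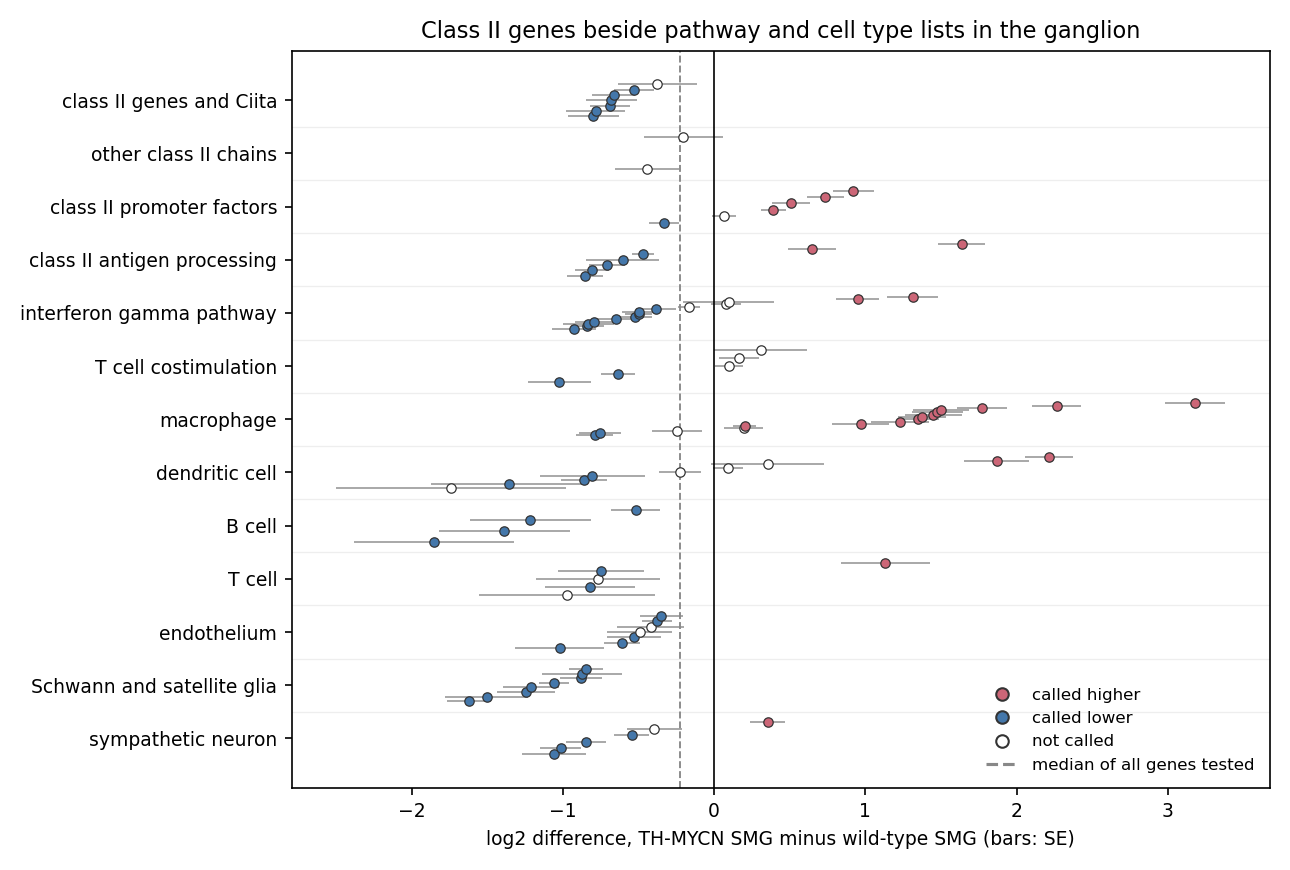
Log2 difference between TH-MYCN SMG and wild-type SMG, with its SE, for every tested gene of 13 lists; colour gives limma's call and the dashed line is the median of all genes tested, -0.22. The class II genes and Ciita lie between -0.80 and -0.38, the 15 macrophage markers between -0.79 and 3.18.

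To set the class II genes against the macrophage gain, the macrophage score of each sample was subtracted from every gene of that sample and the comparison was fitted again. All 7 genes were then lower, with a median of -1.69, from -1.81 for H2-DMa to -1.39 for Ciita. The 95% intervals of the 7 ran from -2.33 to -0.86 in all, and adjusted p values were 4.22e-05 or smaller (limma). Subtracting a score that rose lowers nearly every gene, however: 87.9% of all genes were called lower on this scale, with a median of -1.24. The same was done with the scores of other cell types, most of them chosen after the data were seen. Relative to dendritic cell markers 6 of the 7 were lower, against 29.6% of all genes, and Ciita was not (-0.33, interval -0.89 to 0.24, adjusted p = 0.329, limma).

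Relative to endothelial markers 0 of the 7 were called lower, against 4.93% of all genes. Their differences were between -0.26 and 0.17, and the 95% intervals reached from -0.61 to 0.72, so changes of that size relative to endothelium were not resolved. Relative to B cell markers 0 of the 7 were called lower and 0 higher, against 0.0505% and 56.1% of all genes. These differences were 0.45 to 0.87, with wide intervals of -0.39 to 1.70 in all, since the B cell score spread widely in wild-type SMG. Relative to Schwann and satellite glial markers all 7 were called higher, by 0.36 to 0.78, as were 84.3% of all genes.

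**Figure D3:**
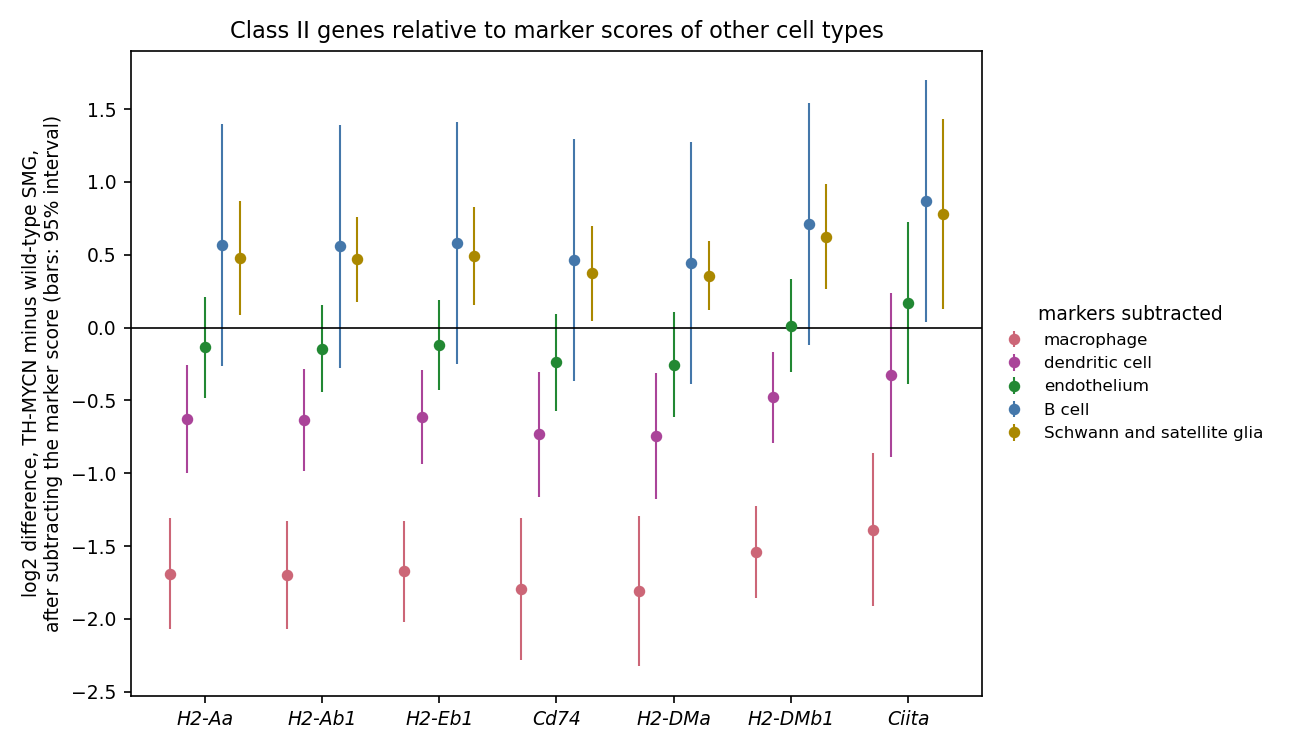
Log2 difference of each gene between TH-MYCN SMG and wild-type SMG after the mean of a marker list was subtracted in every sample, with 95% intervals from limma. All 7 genes lie below 0 relative to macrophage markers, at -1.81 to -1.39, near 0 relative to endothelial markers and above 0 relative to glial markers.

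Within a genotype, samples with more macrophage transcript did not have class II levels in one common order. Over the 8 wild-type samples H2-Aa followed the macrophage score (r = 0.903, exact permutation p = 0.00265, adjusted over 14 relations 0.0372; rho = 0.905, exact permutation p = 0.00456, adjusted 0.0507). Without the 2 samples farthest from the median score r was 0.846, and centred within slides it was 0.888. H2-Eb1 did likewise (r = 0.877, exact permutation p = 0.00620, adjusted 0.0434; rho = 0.881, exact permutation p = 0.00724, adjusted 0.0507), with r = 0.798 without the 2 farthest samples and 0.876 within slides. With C1qa, C1qb and C1qc left out of the score both fell just short (r = 0.879 and 0.848, exact permutation, adjusted 0.0509 each), as H2-Eb1 did with normexp (r = 0.870, exact permutation, adjusted 0.0568). H2-Ab1, Cd74 and H2-DMb1 had r between 0.699 and 0.759 and did not pass the adjustment, which for each was 0.0935 (exact permutation).

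Over the 8 TH-MYCN samples r was negative for 6 of the 7 genes, and 0 relations passed the adjustment. The most negative was H2-DMa (r = -0.778, exact permutation p = 0.0117, adjusted 0.0546; rho = -0.833, exact permutation p = 0.0154, adjusted 0.0538). Its r was -0.735 without the 2 farthest samples and -0.964 within slides. For H2-Ab1 r was -0.741 and for Cd74 -0.704 (adjusted 0.0935 each, exact permutation), with -0.931 and -0.973 within slides but -0.458 and -0.582 without the 2 farthest samples. For H2-Eb1 r was -0.641, with -0.803 within slides and -0.129 without those samples. For H2-Aa r was -0.647, with -0.663 within slides, and became 0.234 without the 2 farthest samples. For H2-DMb1 r was -0.400, with -0.630 within slides, and became 0.24 without them. The relations of H2-Aa, H2-Eb1 and H2-DMb1 over all 8 samples thus rest on those 2 samples. The macrophage score was not the only score to vary with H2-DMa here. The Schwann and satellite glial score put the 8 TH-MYCN samples in the same order as H2-DMa, from 1.62 in TH-MYCN SMG 4 to 0.56 in TH-MYCN SMG 2. Relations with scores other than the macrophage score were not tested.

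The difference between the genotypes in the slope of a gene on the macrophage score was tested over all genes with limma, a test chosen after these correlations were seen. It was called lower in TH-MYCN SMG for 4 of the 7 genes, against 2.41% of all genes. The slope of H2-Aa was 1.92 in wild-type SMG and -0.59 in TH-MYCN SMG (log2 per log2), a difference of -2.51 (SE 0.46, adjusted p = 0.0129, limma). The differences were -2.02 for H2-Eb1, -1.66 for H2-Ab1 and -2.51 for Cd74. For H2-DMb1 (-1.47, adjusted p = 0.0566, limma), H2-DMa (-1.03, adjusted p = 0.260) and Ciita (-0.95, adjusted p = 0.620) the slope difference was not called. With slide as a block 6 of the 7 were called, and 1215 of all 15826 genes were called lower, against 382 without a block. With a replicate block 0 of the 7 were called (adjusted p from 0.0607 for Cd74 to 0.645 for Ciita, limma), and only 9 of all genes were called lower. With that block the differences of the 4 genes were -2.43 for H2-Aa, -2.24 for H2-Eb1, -2.14 for H2-Ab1 and -3.59 for Cd74. The calls also depended on single samples. Without wild-type SMG 2, which had the highest wild-type macrophage score at 0.75, or without TH-MYCN SMG 4, which had the lowest TH-MYCN score at 0.86, 0 of the 7 were called. Without wild-type SMG 1, 3, 5 or 6, or without TH-MYCN SMG 1, 2 or 6, H2-Aa and H2-Eb1 alone were called, 2 of the 7, and 172 to 468 of all genes were called lower. The 4 differences kept their sign in these fits. Without wild-type SMG 2 they were -2.41 for H2-Aa, -2.04 for H2-Eb1, -1.73 for H2-Ab1 and -2.67 for Cd74, and 0 of all 15826 genes were called lower (2677 genes had an unadjusted p under 0.05 in either direction). Without TH-MYCN SMG 4 they were -1.85 for H2-Aa, -1.86 for H2-Eb1, -1.85 for H2-Ab1 and -3.32 for Cd74, again with 0 genes called lower (2611 at an unadjusted p under 0.05).

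**Figure D4:**
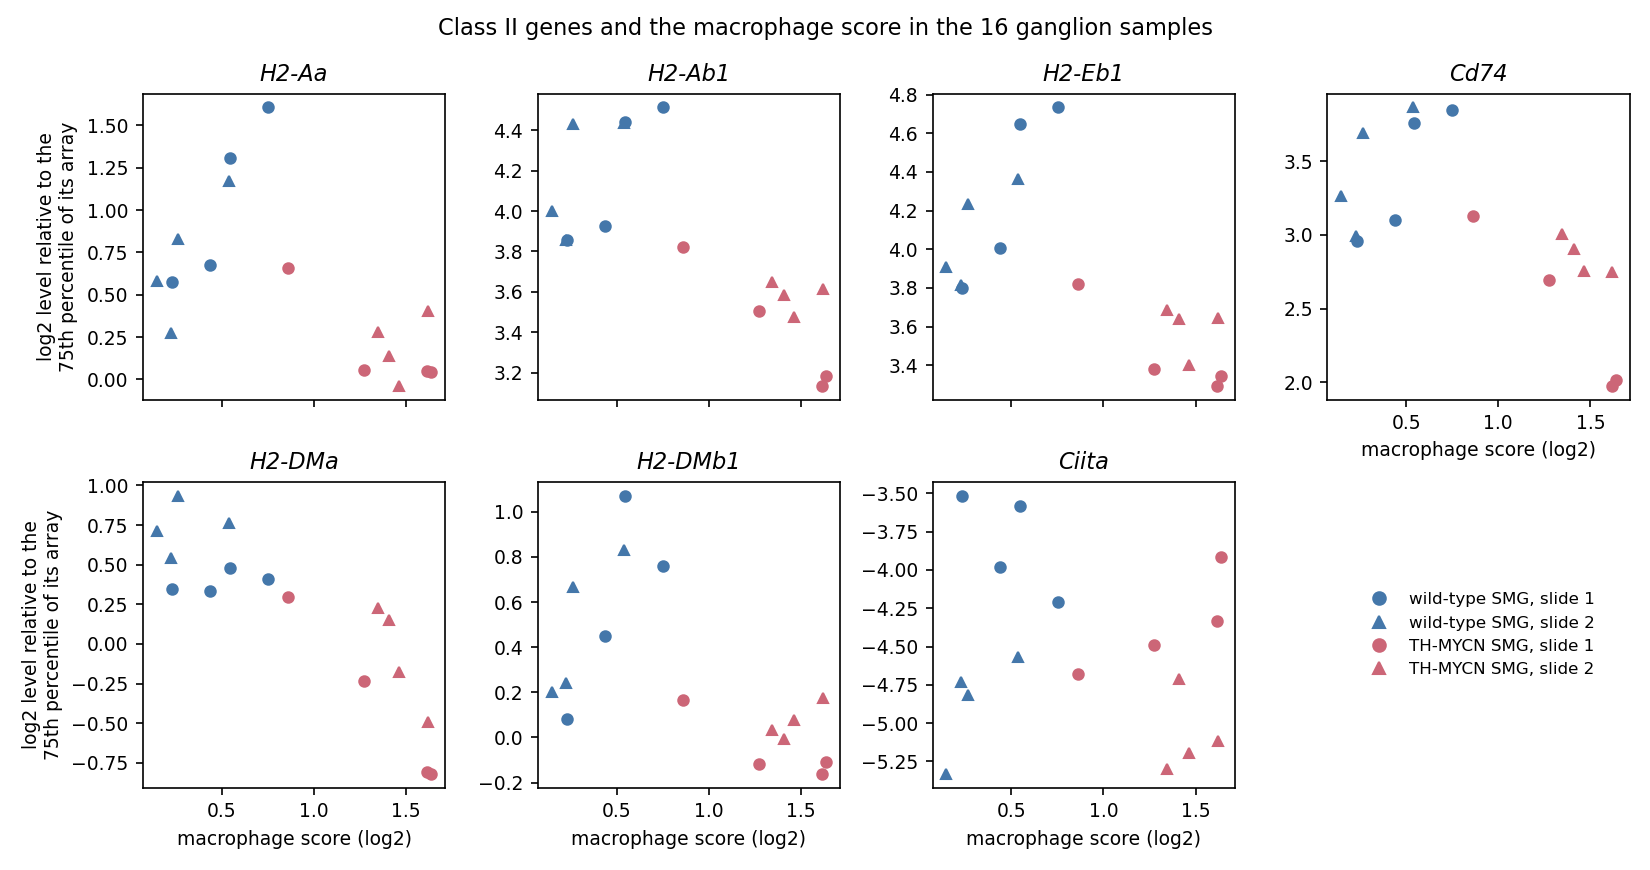
Log2 level of each gene against the macrophage score, the mean log2 level of 15 macrophage markers, in the 8 wild-type and 8 TH-MYCN SMG samples; symbols separate slides 1 and 2. Wild-type points lie at scores of 0.15 to 0.75 and rise to the right for H2-Aa and H2-Eb1, and TH-MYCN points lie at 0.86 to 1.64.

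As a description of which transcripts varied with the class II genes from sample to sample, all 13374 genes with a curated symbol that were well above background on all 16 ganglion arrays were ranked by their correlation with the mean of the 7 genes, each genotype centred on its own mean. The highest were Rcsd1 (r = 0.902 over 16 samples), Dpep1, a dipeptidase gene (0.888), Gvin1, an interferon-inducible large GTPase gene (0.874), Fxyd1, a sodium pump regulator gene (0.867), Asgr2 (0.862), Jcad, an endothelial junction gene (0.860), Adam33 (0.857), Tmc4 (0.853), Pld1 (0.852) and Rdm1 (0.844). The arrays share their scaling and their RNA input, so such values have no p. Against the same mean, of which each gene is itself a part, H2-Eb1 had 0.952, H2-Ab1 0.921, H2-Aa 0.909, H2-DMb1 0.867 and Cd74 0.866, whereas H2-DMa had 0.446 and Ciita 0.129. H2-DMa and Ciita thus had the lowest values, but slides were not centred here. In wild-type SMG every H2-DMa level on slide 1 (highest 0.48) lay below every level on slide 2 (lowest 0.54), the reverse of Ciita. What part this slide difference has in their low values was not tested. All 10 named genes were lower in TH-MYCN SMG, from -0.36 for Jcad to -1.13 for Dpep1.

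In primary spheres all of the 7 transcripts except that of H2-DMa were near or below the limit of the array. The comparison with TH-MYCN SMG, which shares those ganglion samples with the comparison above, called 6 of the 7 genes lower, against 32.9% of 15637 genes tested, whose median difference was 0.27. For H2-Aa, H2-Ab1, H2-Eb1 and H2-DMb1 the probe was not well above background on any of the 8 primary sphere arrays, so the fall is a bound against the lowest signal well above background on each array. That signal, -6.10 to -5.21 on these arrays, is not a strict detection limit. Ciita was brighter in primary spheres 2 and 4, at -4.85 and -5.00, yet not well above background. Folds given below as at least a value are set against that signal and are not guaranteed minimums. H2-Aa, H2-Ab1, H2-Eb1 and H2-DMb1 could be tested only because they were well above background in the ganglia. Their lower calls, part of the 6, were thus fixed in advance and are not a test, so no p is given for them.

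By the bound, H2-Eb1 was at least 503-fold lower in primary spheres than in TH-MYCN SMG. Its measured sphere values were -7.55 to -5.74, against 3.29 to 3.82 in the ganglion. H2-Ab1 was at least 492-fold lower, and its second probe was not well above background on any primary sphere array either. H2-Aa was at least 50.1-fold lower and H2-DMb1 at least 43.9-fold lower.

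Cd74 was well above background in 6 of the 8 primary spheres. It ranged from -5.73 to -3.51 with a median of -4.71 in these cultures, far below the ganglion range of 1.98 to 3.13. The fitted log2 difference was -7.30 (SE 0.27, adjusted p = 3.28e-13, limma), and its size is uncertain because 2 of the 8 values were not well above background.

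H2-DMa was the only one of the 7 genes well above background in all 8 primary spheres, and among the other class II chains H2-Ob was so too. H2-DMa ranged from -2.24 to -1.83 with a median of -1.98, below the ganglion range of -0.82 to 0.30, and the log2 difference was -1.76 (SE 0.16, adjusted p = 2.18e-08, limma). Ciita ranged from -5.00 to -3.35 with a median of -4.69, across the ganglion range, and was well above background in 6 of 8. Its difference of 0.18 was not called (SE 0.23, adjusted p = 0.478, limma). With normexp it was 0.67 and called (adjusted p = 4.69e-06), and under that correction, whose offset pulls dim values up, H2-Aa (-3.20), H2-Ab1 (-6.71), H2-Eb1 (-6.39) and H2-DMb1 (-3.01) all differed by less than their bounds.

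Most of the listed genes of macrophages and of the class II pathway were lower in the spheres too, as were those of several other cell types. All 15 macrophage markers were lower, against 32.9% of all genes, among them Mpeg1, at least 191-fold, and C1qc, at least 226-fold. For 8 of the 15 no primary sphere array was well above background. Lower too were 8 of 8 Schwann and satellite glial, 6 of 7 endothelial, 4 of 6 sympathetic neuron and 3 of 4 B cell markers. Of 6 dendritic cell markers 3 were higher and 3 lower, and of 5 T cell markers 2 were higher and 1 lower. Ctss was at least 474-fold lower and Ctsh at least 205-fold, neither of them well above background on any primary sphere array, while Ctsb (-2.09, SE 0.07) and Lgmn (-2.01, SE 0.12) stayed well measured. Of 14 interferon gamma pathway genes 11 were lower and 1, the feedback inhibitor Socs1, was higher (1.90, SE 0.10). Of the promoter factors 4 of 6 were higher, against 50.3% of all genes, with Nfyb at 1.37 (SE 0.12) and Rfxap at 0.69 (SE 0.07), and 0 were lower. Cd40 and Cd86 were at least 16.8-fold and at least 14.6-fold lower.

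Passaged spheres were compared with primary spheres, without pairing, since the labels do not tie a passaged culture to one of the primary cultures measured. Only H2-DMa, Ciita and Cd74 were bright enough to be tested, since the other 4 genes were not well above background on any of the 8 arrays of passaged spheres. H2-DMa was -2.72, -2.95, -2.46 and -2.80 in passaged spheres 1 to 4, all below the primary sphere range. Its log2 difference was -0.74 (SE 0.10, adjusted p = 0.00133, limma, n = 4 and 8), which cannot be told apart from a difference between slide columns. It was 1 of 3 genes called lower, against 6.58% of 14140 genes tested. With normexp the difference was -0.37 and was still called (adjusted p = 0.0263).

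Cd74 was -4.13, -4.63, -4.65 and -4.83 in passaged spheres 1 to 4, within the primary sphere range, and 3 of the 8 arrays, both those of passaged sphere 1 among them, were well above background. Its difference of 0.09 was not called (SE 0.35, adjusted p = 0.887, limma). Ciita was -4.38, -4.85, -3.38 and -4.82, again within the primary sphere range, with 3 of the 8 arrays well above background, and its difference of 0.18 was not called (SE 0.32, adjusted p = 0.755, limma). Both differences have standard errors larger than their size, so a change of that size was not detectable here.

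The order of the groups was thus the same for H2-Aa, H2-Ab1, H2-Eb1, Cd74, H2-DMa and H2-DMb1: highest in wild-type SMG, lower in TH-MYCN SMG and lowest in spheres. For H2-DMa passaged spheres were lower than primary spheres. For Cd74 the 2 sphere groups did not differ beyond their spread, and for the other 4 both sphere groups were not well above background and have no order. For Ciita no neighbouring groups differed beyond their spread with the main processing.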

How the data were processed

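RNA of 28 samples was hybridised to 32 one-colour Agilent arrays. Cy3 labelling started from 40 or 200 ng of RNA (integrity number over 8), per the labels' protocols, without saying which for a given sample. The deposited spot intensity is, per the file headers, background-subtracted by Agilent Feature Extraction 11.5.1.1 and not normalized between arrays. The authors also deposited a log2 table of processed values. Of its cells 99.9% match the log2 scanner values, scaled to the 75th percentile and less a constant per probe, within 0.05 (column medians -0.48 to 0.51). What that table was centred on is unknown.

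Each array's processed signals were divided by their 75th percentile and taken to log2, without controls or outlier spots (109 to 211 per array; 0 spots were saturated). Probes were named through RefSeq accessions; 28446 were unnamed and left out. A probe was kept if well above background in at least 4 samples of a comparison, and a gene was read from its kept probe with the highest mean. Each pair of groups was fitted on its own in limma 3.58.1 (R 4.3.3; data.table version 1.17.8; two-sided, Benjamini-Hochberg over all genes, calls at an adjusted p under 0.05), and the fits were tested on simulated data. Figures used Python 3.11.15 and matplotlib 3.10.9. The series calls the samples biological replicates. Alternatives were normexp (offset 50), quantile normalization, other filters, probe means, all groups in one fit, the deposited value table, slide and replicate blocks, and leaving out samples. The genes, lists and rules, promoter words included, were chosen with earlier results of these data known. Named genes were the 7 genes, up to 4 called genes with the smallest adjusted p per list and comparison, list genes that were not measured, and the 10 most alike; other list genes named for contrast were chosen after their values were seen. Some genes that this rule would name are not reported here.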

Additional observations from a re-analysis of the deposited data

Results flagged for a closer look

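Of 36 groups of samples, 4 held a sample far from its group, where chance gives about 1 in 20. In primary sphere 6 Ciita was at -3.35, with the next highest of the group at -4.36. In primary sphere 4 H2-Ab1 was at -5.95 (next -7.46) and H2-Aa at -6.57 (next -7.21), both not well above background, as in the other primary spheres. In TH-MYCN SMG 4 the macrophage score was 0.86, with the next lowest at 1.27, and this sample had the highest TH-MYCN level of H2-Aa, H2-Ab1, H2-Eb1, Cd74 and H2-DMa. The same sample had the highest TH-MYCN score of glial markers, at 1.62 (next 1.39), and of the interferon gamma pathway, at 0.31. Its score of promoter factors was the lowest, at -0.08, while its endothelial and sympathetic neuron scores lay inside the range of the others. How these are related was not tested.

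The slope on the macrophage score differed between TH-MYCN and wild-type SMG by -2.51 for Cd74, -2.51 for H2-Aa, -1.66 for H2-Ab1 and -2.02 for H2-Eb1 (limma, test of the difference itself).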

How the results depend on the processing

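The number of class II genes called lower in TH-MYCN SMG was 6 or 7 in all alternatives run, and that of macrophage markers called higher 10 or 11. With the main processing 44.0% of all genes were called lower there and 21.8% higher. The numbers called lower in primary spheres (6) and in passaged spheres (1) kept their value in all alternatives run, beside 32.9% and 6.58% of all genes with the main processing. The shares of all genes in the alternatives are not reported here, so steady counts do not show whether these genes stand apart from others. Replicate numbers are shared by the groups, but same-numbered samples did not deviate together in every pair (correlations of -0.01 to 0.37 over 8 ganglion pairs, 7 of them over 0.1, and 4 of 8 samples closest to their own number). With the replicate block Ciita, at -0.38, was called in TH-MYCN SMG (adjusted p = 0.0445, limma), so that 7 genes were. With that block the slope difference was called for 0 of the 7, and was called lower for only 9 of all 15826 genes. Its sizes were -3.59 (Cd74) to -2.14 (H2-Ab1) in the 4 genes called without the block. Relative to other scores the number called lower was 0 with endothelial, 0 with B cell and 0 with glial markers in place of macrophage markers, and these differences turned positive: with endothelial markers H2-DMb1 (0.013) and Ciita (0.17); with B cell markers H2-Aa (0.56), H2-Ab1 (0.56), H2-Eb1 (0.58), Cd74 (0.46), H2-DMa (0.45), H2-DMb1 (0.71) and Ciita (0.87); with glial markers H2-Aa (0.48), H2-Ab1 (0.47), H2-Eb1 (0.49), Cd74 (0.37), H2-DMa (0.36), H2-DMb1 (0.62) and Ciita (0.78). The uncalled difference of Cd74 between passaged and primary spheres was -0.25 within slide 4 and -0.065 to 0.25 without 1 sample, that of Ciita -0.15 to 0.35. The slope difference was called for 0 to 5 of the 7 genes without 1 sample, where 0 to 641 of all genes were called lower. For Ciita the slope difference was 0.67 with slide as a block, 0.62 with the replicate block, 0.97 with normexp and -1.77 to 0.0082 without 1 sample. The r of Ciita with the macrophage score in wild-type SMG was -0.28 with normexp. The causes of these changes were not tested. No slide held both ganglia and spheres, so no value within a slide exists there, and shifting whole arrays leaves values relative to a score as they are, so it was not run. Ciita and the sphere levels of the other genes except H2-DMa lie near background, which limits them most.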
